A study of Mus musculus with 33 samples.

Results

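Paraxial mesoderm made from mouse embryonic stem cells was moved at day 6 (D6) into tendon-inducing medium with either CD1530, a synthetic agonist of retinoic acid receptor gamma, or AGN 193109 (AGN), an inverse agonist of all the retinoic acid receptors, and was compared here 18 hours later (D6.75). All 3 CD1530 libraries and all 3 AGN libraries of that time were taken, 6 of the 33 libraries in the series, and all 17120 genes of the count table were tested. The cells carry ScxGFP, a reporter of the tendon transcription factor Scleraxis, and were grown as a monolayer. Both groups had shared everything up to D6: embryoid bodies formed with the BMP receptor inhibitor LDN-193189, then LDN-193189, the Wnt activator CHIR and AGN 193109. From D6 both also received TGFβ1, FGF2 and the hedgehog agonist SAG. The CD1530 cells therefore went from a retinoic acid receptor inverse agonist to an agonist, and the AGN cells stayed on the inverse agonist. There was no library at 18 h without either compound, and the study's methods give different concentrations for the compounds, so the share of a difference that belongs to CD1530 cannot be told apart from the share that belongs to AGN. Which of the study's ScxGFP lines gave the RNA is not given in the sources used here.

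Retinoic acid is made from vitamin A by retinol and retinaldehyde dehydrogenases and is broken down by the Cyp26 enzymes. It acts through nuclear receptors (RARs) that sit on DNA with a retinoid X receptor (RXR) partner, hold target genes down when empty and switch them on when bound. Its best known targets include the genes that clear it (Cyp26a1, Cyp26b1, Dhrs3), its own receptor Rarb and the first genes of the Hox clusters. In the embryo it patterns the trunk, opposes FGF and Wnt signals in the tailbud, is used by the somites, and must be cleared for cartilage to form.

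The 6 libraries held 17509535 to 22775275 counts assigned to genes, and levels are given below as CPM, counts relative to the library total after TMM scaling. CD1530 replicate 1 stood apart from its group. Its log2 CPM correlated across genes at r = 0.990 with either other CD1530 replicate, against 0.995 between those and 0.994 to 0.995 among the AGN libraries, and its deviation followed exon length, from a median of 0.16 (log2) above the group mean in the shortest of 5 equal bins of genes to 0.18 below it in the longest. Each count below was therefore also taken without it. The study's methods call the replicates biological, and the labels do not say that they came from separate cultures. The p-values rest on a spread between replicates estimated over all 33 libraries, not on these 6 alone, and that spread may be technical. The labels name the time and compound, not a cell type, so the markers of the intended cells were looked up. Scx, the defining tendon factor, stood at 418 to 487 CPM in all 6 libraries, and Col1a1, the main tendon collagen, was at 3300.4 to 4070.4 CPM. Tbx6, which defines presomitic mesoderm, was at 0.225 to 0.729 CPM, against a mean of 9.56 CPM at D6. The pluripotency factors Pou5f1 (322 to 370.0 CPM) and Nanog (172 to 243 CPM) were still read in every library.

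At 18 h, 3076 of 17120 genes (18%) differed between CD1530 and AGN at an adjusted p below 0.05 in edgeR's quasi-likelihood test, 1359 higher in CD1530 (7.94%) and 1717 lower (10%). Most differences were small. The median absolute log2 fold change of the called genes was 0.34, 2057 were below 0.5, and 343 reached 1 or more, of which 191 were higher and 152 lower. Of all genes tested, 4510 (26.3%) had no overlap between the 3 CD1530 and the 3 AGN libraries, and 2820 of the called genes were among them. Without CD1530 replicate 1 there were 3003 calls, 1473 of them higher, and 2320 of the 3003 were also calls with it; 2244 genes were called with it, without it and after a correction of each library for gene length and GC content. That correction gave 3426 calls, 1741 higher and 1685 lower, so the balance of directions turned. A fit of the 6 libraries alone, with the spread estimated from them only, called 1236 genes, and without CD1530 replicate 1 that fit called 3363. With all 6 libraries, the fit of these libraries alone lost 28 of 134 named calls, and it also lost Nr2f2. The 28 included Ccn2, Cdx4, Dppa3, Fgfr3, Fgfr4, Hhip, Lfng, Matn4, Mcm6, Pmepa1, Ptch1, Rara, Sox9, Tet2, Tgfb2 and Vegfa. Fold changes below are log2 of CD1530 over AGN with their standard error (SE), and p-values are adjusted over all 17120 genes. Unless a time span is given, a rise or fall means higher or lower in CD1530 than in AGN, not over time. Every count of list members below is to be read beside the shares over all genes, 7.94% called higher and 10% called lower.

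Cyp26a1, Cyp26b1 and Dhrs3, which clear retinoic acid or its precursor, and the transport gene Stra6 were higher in CD1530, whereas Aldh1a3 and Rdh10, which act in its synthesis, were lower. Of 14 listed genes of retinoid metabolism and transport in the table, 7 were higher and 4 lower, against 7.94% and 10% of all genes (median 0.44, and −0.0071 over all genes). Cyp26b1, which oxidises retinoic acid, was read at 118, 134 and 122 CPM in the CD1530 replicates 1, 2 and 3 and at 16.3, 12.7 and 13.2 CPM in the AGN replicates 1, 2 and 3. Every CD1530 library was far above every AGN library, and the difference was 3.14 ± 0.08, adjusted p = 3.68e-26. Its relative Cyp26a1 was at 180.0, 162 and 162 CPM against 70.2, 72.03 and 72.2 CPM (1.23 ± 0.047, adjusted p = 3.1e-23), again without overlap. Dhrs3, the enzyme that turns retinaldehyde back into retinol, was at 44.4, 38.8 and 35.8 CPM in CD1530 and 7.80, 7.77 and 9.22 CPM in AGN (2.27 ± 0.078, adjusted p = 6.87e-25). Stra6, which carries retinol across the membrane, was at 36.9, 41.3 and 42.2 CPM against 12.7, 12.8 and 15.4 CPM (1.56 ± 0.078, adjusted p = 7.17e-19). Crabp2, which passes retinoic acid to the receptors, differed less, at 17.5, 13.1 and 12.5 CPM against 9.12, 7.87 and 8.83 CPM (0.74 ± 0.10, adjusted p = 2.7e-07), and the groups did not overlap. Among the enzymes of synthesis, the retinaldehyde dehydrogenase gene Aldh1a3 was at 5.09, 6.14 and 6.02 CPM in CD1530 and 11.3, 11.8 and 11.01 CPM in AGN (−0.98 ± 0.082, adjusted p = 1.35e-12). Rdh10, the retinol dehydrogenase of the embryo, was lower in CD1530 by 0.50 on the log2 scale (adjusted p = 3.16e-08). Aldh1a2, the main retinaldehyde dehydrogenase of the somites, had a fold change of −0.047 (adjusted p = 0.757). Without CD1530 replicate 1 the list held 7 higher and 3 lower genes, the call of Dhrs9 being lost.

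Among the receptors, the gene of the receptor that CD1530 binds was itself higher. Rarg was at 96.9, 95.4 and 90.2 CPM in CD1530 and 49.03, 46.7 and 50.4 CPM in AGN (0.95 ± 0.051, adjusted p = 1.42e-18), and no library of one group reached the other. Rarb, a receptor gene known as a direct retinoic acid target, was at 6.53, 8.68 and 8.19 CPM against 2.25, 2.28 and 2.35 CPM (1.77 ± 0.15, adjusted p = 1.37e-12). The AGN level was low, and all 3 CD1530 libraries were above it. Rara differed by 0.12 (adjusted p = 0.0412), a call lost on leaving out AGN replicate 1, 2 or 3 or CD1530 replicate 2 or 3. Rxra, an RXR partner gene, was lower (−0.42 ± 0.046, adjusted p = 2.21e-09). Of 12 receptor and cofactor genes, 3 were higher and 1 lower, and without CD1530 replicate 1, 5 were higher and 1 lower.

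Of 11 other genes listed as responding to retinoic acid, 9 were higher in CD1530 and none was lower (median 1.44), the same count as without CD1530 replicate 1. That list was drawn up with earlier results of these data known, so its count is a description. Stra8, named for its response to retinoic acid and needed for meiotic entry in germ cells, had the largest called rise of the whole table. It was at 7.02, 5.77 and 5.89 CPM in CD1530 and 0.308, 0.194 and 0.223 CPM in AGN (4.63 ± 0.23, adjusted p = 7.38e-20), and the AGN values were only just above the level of 3 counts. Cdx1, a caudal homeobox gene that sets vertebral identity, was at 11.1, 8.41 and 9.004 CPM against 0.485, 0.534 and 0.503 CPM (4.21 ± 0.20, adjusted p = 1.74e-20). At D6 it had stood at 33.4 ± 1.12 CPM (SD, n = 3). Between 6 and 18 h its log2 change was −3.42 in AGN and 0.00091 in CD1530, and the difference between those changes had an adjusted p of 3.29e-13. Nr6a1, an orphan nuclear receptor gene of trunk patterning, was higher (1.44 ± 0.058, adjusted p = 1.31e-22), as was Tgm2, which encodes transglutaminase 2 (0.96 ± 0.06, adjusted p = 3.21e-16). Rec8, a meiotic cohesin gene, differed by 0.58 (adjusted p = 2.21e-07). Nr2f2, which encodes the nuclear receptor COUP-TFII, had a fold change of 0.15 (adjusted p = 0.0275).

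**Figure D1:**
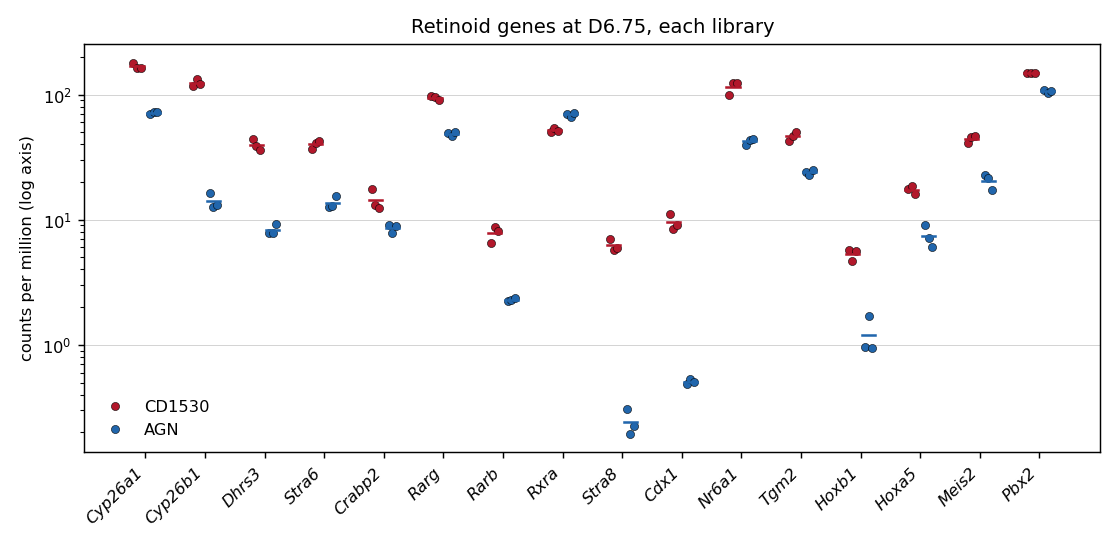
CPM of 16 retinoid, Hox and Meis or Pbx genes in each of the 6 libraries on a log axis, CD1530 and AGN replicates as points and group means as bars. Cyp26b1 lay between 118 and 134 CPM in CD1530 and between 12.7 and 16.3 CPM in AGN, while Rxra was lower in CD1530.

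The promoters of these genes were read for the sequence that RAR and RXR bind. That element is a pair of 6-base half-sites repeated head to tail with 5, 2 or 1 bases between them, and it was searched on both strands, overlaps allowed. The half-sites searched were AGGTCA, which is the consensus, as well as GGGTCA, which starts with the other purine, then AGTTCA and, with both changes, GGTTCA. Of 17120 genes tested, 11699 (68.3%) had a promoter window in RefSeq (GRCm38.p6), from 250 bases before to 50 after a transcript start. The retinoid lists, drawn up with earlier results of these data known, held 19 genes called higher, Csn3, Arg1 and Prrt3 among them. Of these 19, 13 had a window and 2 of the 13 held a repeat, Rarb and Cyp26a1. Both repeats had the spacing of 5 that is the classic retinoic acid response element. They are shown with the other gene that was called higher and held the same spacing, Blvrb, which encodes biliverdin reductase B, rose by 0.29 and was picked after its values were seen. Each line runs 5′ to 3′ on the strand of the gene, with the half-sites in capitals and 12 bases on each side.
Rarb, chr14:16575501-16575541, minus strand, repeat 53 to 37 bases before the start: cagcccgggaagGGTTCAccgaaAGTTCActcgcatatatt
Cyp26a1, chr19:37697764-37697804, plus strand, repeat 32 to 16 bases before the start and read on the opposite strand: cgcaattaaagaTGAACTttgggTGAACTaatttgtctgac
Blvrb, chr7:27452387-27452427, plus strand, repeat 19 to 3 bases before the start and read on the opposite strand: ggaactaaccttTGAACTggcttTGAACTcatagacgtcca
The repeat with a spacing of 5 was in 3 of 1354 promoters of genes called higher (0.222%), in 0 of 1783 promoters of genes called lower and in 7 of 14936 promoters of all genes tested (0.0469%). With any of the 3 spacings it was in 0.886% of promoters of higher genes, 0.112% of lower genes and 0.335% of all genes tested. These are matches of letters in a short window, given as a description. The other 11 retinoid genes with a window, called higher, held none of these letters there.

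Hox genes, which give cells their position along the trunk, were mostly higher where they were called. Of 38 Hox genes in the table, 14 were higher and 1 lower (median 0.26), and without CD1530 replicate 1, 11 were higher and none lower. Paralogue groups 1 to 5 lie at the 3′ end of the clusters and are the first to be switched on in the embryo. Of their 14 genes in the table, 10 were higher and none lower. Of 24 genes from groups 6 to 13, 4 were higher and 1 lower. Without CD1530 replicate 1 the counts of higher genes were 8 and 3. The difference between these sets was not tested. Hoxb1, the first gene of the B cluster, was at 5.76, 4.68 and 5.63 CPM in CD1530 and 0.969, 1.70 and 0.950 CPM in AGN (2.14 ± 0.21, adjusted p = 6.49e-11), and the groups did not overlap. From 6 to 18 h Hoxb1 fell in both groups, by 2.27 on the log2 scale in AGN and by 0.79 in CD1530. Hoxa4 (1.22) and Hoxa5 (1.21) were called as well, with adjusted p of 2.28e-06 and 1.53e-12. The call of Hoxb13 rested on few counts, at 0.360, 0.318 and 0.384 CPM in CD1530 and at or under 3 counts in every AGN library, which makes it at least 2.32-fold higher. The called fall was that of Hoxd11 (−0.37 ± 0.12, adjusted p = 0.0208). Among the Meis and Pbx genes, whose proteins bind DNA together with Hox proteins, 4 of 9 were higher and none lower. Meis2, a gene that responds to retinoic acid in limb mesoderm, was at 40.98, 45.96 and 46.2 CPM against 22.6, 21.4 and 17.3 CPM (1.11 ± 0.081, adjusted p = 9.27e-14). Pbx2 (0.49, adjusted p = 1.98e-12) and Meis1 (0.41, adjusted p = 2.69e-05) were also called.

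The 15 largest rises under the naming rule, which asks for a mean of 50 counts and a call without CD1530 replicate 1, were Stra8, Cdx1, Cyp26b1 and Dhrs3, described above, and 11 others. Csn3, a milk casein gene, was at 16.2, 15.5 and 14.2 CPM in CD1530 and 1.67, 1.89 and 1.90 CPM in AGN (3.07 ± 0.17, adjusted p = 1.05e-16). Arg1, the urea cycle arginase, was at 62.7, 53.7 and 53.1 CPM against 12.8, 10.6 and 12.3 CPM (2.24 ± 0.076, adjusted p = 5.51e-25). Serpinf2 (4.44 ± 0.38), which encodes an inhibitor of plasmin, was also among them. Its AGN values were 0.0881, 0.291 and 0.223 CPM, near the level of 3 counts, so the size of its fold is uncertain. Foxn4 (3.42), a forkhead factor of retina and spinal cord, and Mafa (2.37), a factor of pancreatic beta cells, were in the set too. Others act in membrane transport or epithelia: the water and glycerol channel Aqp3 (2.98), the podocyte protein gene Nphs1 (2.72), the peptide transporter Slc15a1 (2.32) and the calcium pump Atp2c2 (2.24). Misp3 (2.68) and Prrt3 (2.26) completed the set. Csn3, Arg1 and Prrt3 were also members of the list of genes responding to retinoic acid. That list was drawn up with earlier results of these data known, so their membership is a description and no separate evidence. The adjusted p of these 15 genes ran from 3.68e-26 to 4.44e-09.

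Cer1 had the largest fall in the whole comparison among genes that met the same rule. Cer1 encodes Cerberus, a secreted inhibitor of Nodal, BMP and Wnt signals made by anterior endoderm and by the newest somites. It was at 24.9, 28.5 and 27.2 CPM in CD1530 and 221, 212 and 233 CPM in AGN (−3.05 ± 0.068, adjusted p = 2.64e-31). It was nearly unread at D6 (0.412 CPM), and from 6 to 18 h it rose by 2.91 (log2) in AGN against 0.50 in CD1530. Pga5, a pepsinogen gene, moved the same way. It was at 228, 205 and 209 CPM against 574, 567 and 589 CPM (−1.43 ± 0.048, adjusted p = 5.51e-25) and between 6 and 18 h rose by 3.38 in AGN against 2.23 in CD1530. The other large falls included several genes of head, heart and early mesoderm patterning: Isl1 (−1.89), a LIM homeobox gene of heart and limb progenitors, Hesx1 (−1.67), of anterior neural plate and pituitary, and the protocadherin gene Pcdh8 (−1.37), of segmenting mesoderm. Vrtn, known for its effect on vertebra number in pigs, was lower too (−1.56 ± 0.095, adjusted p = 1.05e-16). From 6 to 18 h Vrtn had a log2 change of −0.0095 in AGN and fell by 1.35 in CD1530, and the difference between those changes passed the test (adjusted p = 2.54e-10). The remaining members were Reg4 (−2.21), the potassium channel gene Kcnj5 (−2.19), the retinoid-responsive Rarres1 (−1.83), the glucokinase regulator Gckr (−1.58), Fgfbp1 (−1.57), which encodes an FGF-binding protein, the neurokinin receptor gene Tacr1 (−1.47), Tmem178 (−1.42), the synaptic vesicle gene Sv2c (−1.41) and the neuronal pentraxin Nptx1 (−1.39). Rarres1 was named for induction by retinoids in skin, and here it was at 1.62, 1.27 and 1.49 CPM in CD1530 against 5.20, 5.44 and 5.03 CPM in AGN.

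Genes of the Nodal pathway and of the primed epiblast were mostly lower in CD1530. Of 12 genes, 8 were lower and 1 higher (median −0.32), with the same counts without CD1530 replicate 1. Nodal itself, the ligand, had a fold change of 0.13 (adjusted p = 0.0912). Otx2, a homeobox gene of the epiblast and the head, was at 47.96, 48.8 and 49.6 CPM in CD1530 and 117, 118 and 117 CPM in AGN (−1.26 ± 0.06, adjusted p = 3.05e-20). Gsc, the organizer gene Goosecoid, was at 21.6, 17.7 and 18.6 CPM against 40.1, 43.9 and 44.02 CPM (−1.14 ± 0.076, adjusted p = 1.83e-15). Fgf5, the marker of the primed epiblast, was lower as well (−0.96 ± 0.072, adjusted p = 6.97e-14). None of these 3 genes had overlapping groups. The Nodal inhibitor Lefty1 was at 182, 152 and 159.6 CPM against 277, 279 and 292 CPM (−0.78 ± 0.043, adjusted p = 3.78e-18). Its relative Lefty2 was lower in CD1530 by 0.30 on the log2 scale (adjusted p = 1.01e-07). The called rise was that of the Nodal co-receptor Tdgf1 (0.25 ± 0.036, adjusted p = 1.2e-06). Dnmt3b, the de novo DNA methyltransferase that is high in the epiblast, was at 151, 168 and 174 CPM in CD1530 and 327, 328 and 343 CPM in AGN (−1.02 ± 0.039, adjusted p = 4.15e-23). It rose in AGN from 6 to 18 h by 0.69 and fell by 0.13 in CD1530. Of 8 genes of DNA methylation and demethylation, 2 were lower (Dnmt3b and its cofactor Dnmt3l at −0.43) and 2 higher (Dnmt3a at 0.29 and Tet2 at 0.54), and without CD1530 replicate 1, 4 were higher and 2 lower.

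The pluripotency genes did not move as a block. Of 12, 4 were higher and 3 lower. Pou5f1 was at 370.0, 330.4 and 340.0 CPM in CD1530 and 322, 325 and 332 CPM in AGN (0.088 ± 0.045, adjusted p = 0.19), which did not pass the test. Nanog was at 243, 231 and 229 CPM against 172, 172 and 184 CPM (0.41 ± 0.038, adjusted p = 1.57e-11), with no overlap. Dppa3 (−0.25, adjusted p = 0.00189), a germline and naive-state gene, and the let-7 inhibitor gene Lin28a (−0.23, adjusted p = 6.26e-06) were lower. All 14 listed genes of the 2-cell-like state in the table, a rare state of stem cell cultures, were at or under 3 counts in every AGN library, and none was called by edgeR or DESeq2, 1 passing at an unadjusted p under 0.05 in each.

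Endoderm markers were lower in CD1530. Of 12 listed endoderm genes, 8 were lower and 1 higher (median −0.55), the same without CD1530 replicate 1, and their summed level was 393 to 435 CPM in the CD1530 libraries against 528 to 560 CPM in AGN. Foxa2, a forkhead factor of definitive endoderm, was at 25.1, 21.6 and 21.04 CPM in CD1530 and 38.02, 35.9 and 34.2 CPM in AGN (−0.68 ± 0.077, adjusted p = 5e-09). Sox17, which defines the same lineage, was at 37.6, 33.8 and 29.7 CPM against 54.1, 47.8 and 57.5 CPM (−0.66 ± 0.078, adjusted p = 1.8e-08), and Hnf4a, of visceral endoderm and liver, differed by −0.97 (adjusted p = 7.24e-05). The groups did not overlap for Foxa2 or Sox17. The apolipoprotein gene Apoa1 went the other way, at 21.3, 15.7 and 17.2 CPM against 7.23, 8.55 and 7.32 CPM (1.23 ± 0.13, adjusted p = 1.71e-09). The alpha-fetoprotein gene Afp, a defining marker, was at 0.409 to 1.12 CPM over the 6 libraries. In a bulk sample fewer cells of a type and less RNA per cell cannot be told apart. Cer1, Otx2 and Gsc, described above, are made in anterior endoderm as well as in mesoderm or epiblast, and the part of these cells in their falls was not tested.

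Endothelial markers were higher in CD1530, with a larger share of members called in 1 direction than any other list. Of 12 genes, 11 were higher and none lower (median 0.95), the same without CD1530 replicate 1, after the length correction and in the fit of the 6 libraries alone. Their summed level was 570 to 601 CPM in CD1530 and 337 to 357 CPM in AGN. Emcn, the sialoprotein endomucin of venous and capillary endothelium, was at 24.9, 23.8 and 21.7 CPM in CD1530 and 7.23, 6.99 and 6.93 CPM in AGN (1.73 ± 0.12, adjusted p = 1.82e-15). Cldn5, the tight junction claudin of endothelium, was at 119.5, 97.6 and 99.04 CPM against 38.2, 35.1 and 35.98 CPM (1.53 ± 0.062, adjusted p = 1.91e-22). Each of the 3 CD1530 libraries was above all AGN libraries for both. The early regulators of the lineage moved with them. Etv2, an ETS factor at the top of the endothelial and blood programme, was at 12.2, 8.82 and 9.73 CPM against 3.88, 2.82 and 3.97 CPM (1.53 ± 0.15, adjusted p = 8.63e-11), and Tal1, shared by endothelium and blood, was at 19.4, 22.1 and 22.1 CPM against 8.37, 7.38 and 7.93 CPM (1.42 ± 0.11, adjusted p = 2.67e-13). Kdr, the VEGF receptor gene that defines the lineage, was at 84.3, 109 and 103 CPM against 54.5, 49.98 and 51.5 CPM (0.92 ± 0.075, adjusted p = 1.66e-11). The smaller calls were Cdh5 (0.32, adjusted p = 0.00216), encoding VE-cadherin, and Pecam1 (0.24, adjusted p = 0.000249), while Tie1 differed by 0.046 (adjusted p = 0.777). The Notch receptor gene Notch4, which is mainly endothelial, was also higher (0.51 ± 0.057, adjusted p = 3.32e-09). Of 8 blood genes, none was called either way by edgeR or DESeq2, and 0 passed at an unadjusted p under 0.05 in edgeR and 0 in DESeq2, with a summed level of 263 to 311 CPM in CD1530 and 262 to 285 CPM in AGN. Fewer endothelial cells in AGN and less RNA of these genes per cell cannot be told apart here, and the part of these cells in other differences was not tested.

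**Figure D2:**
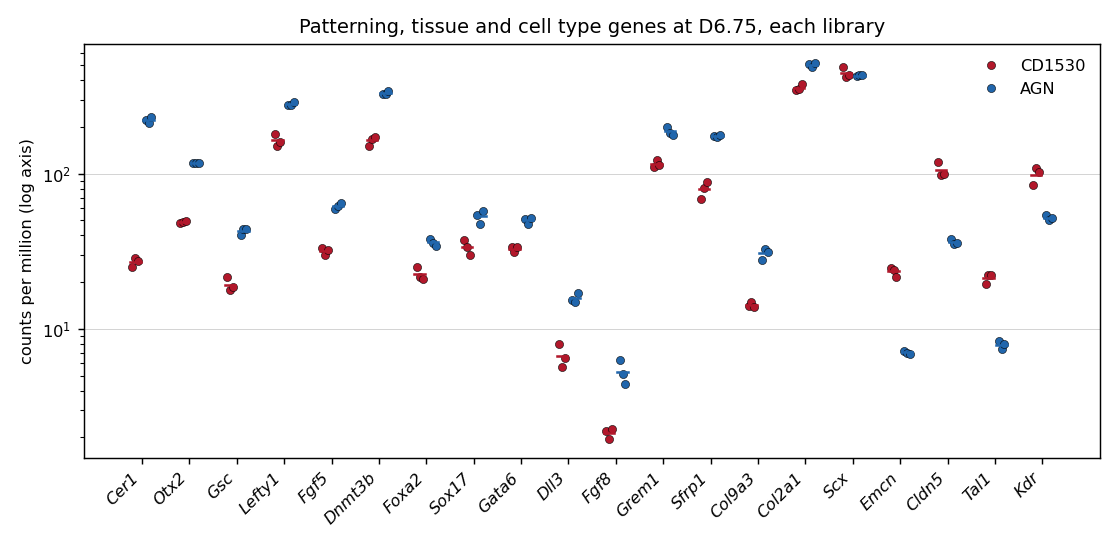
CPM of 20 patterning and lineage genes in each of the 6 libraries on a log axis, CD1530 and AGN replicates as points and group means as bars. Cer1 was near 27 CPM in CD1530 and 222 CPM in AGN, Emcn and Cldn5 were higher in CD1530, and Scx overlapped between the groups.

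Genes of the primitive streak, tailbud and presomitic mesoderm, tissue that retinoic acid borders in the embryo, were mostly lower in CD1530. Of 14 streak and tailbud genes, 7 were lower and 2 higher, or 7 and 1 without CD1530 replicate 1. The rises were those of Sp5 (0.31 ± 0.10, adjusted p = 0.0189), a target of Wnt signals, and of the ligand gene Wnt3a, at 0.811, 0.546 and 0.640 CPM in CD1530 and at or under 3 counts in every AGN library, which makes it at least 4.36-fold higher. Fgf8, the FGF ligand of the tailbud, was at 2.21, 1.95 and 2.26 CPM in CD1530 and 6.30, 5.10 and 4.41 CPM in AGN (−1.31 ± 0.16, adjusted p = 4.6e-08). The T-box gene T (Brachyury) was at 17.5, 19.8 and 17.8 CPM against 27.2, 25.98 and 25.2 CPM (−0.51 ± 0.067, adjusted p = 1.09e-07), and Eomes, another T-box gene of the streak, differed by −0.81 (adjusted p = 2.69e-11). Cdx4, unlike Cdx1, was lower (−0.88 ± 0.27, adjusted p = 0.0183), and that call was lost on leaving out AGN replicate 1 or CD1530 replicate 2 or 3. Of 13 genes of presomitic mesoderm and the segmentation clock, 7 were lower and none higher (median −0.46), or 6 and none without CD1530 replicate 1. Dll3, a Notch ligand gene of the clock, was at 8.02, 5.64 and 6.49 CPM against 15.4, 14.9 and 16.98 CPM (−1.23 ± 0.11, adjusted p = 1.2e-11), and Dll1 was lower too (−0.61 ± 0.12, adjusted p = 0.000222). Lfng, which sugars Notch in each cycle of the clock, differed by −0.46 (adjusted p = 0.00742), a call lost without AGN replicate 2. Tbx6, the presomitic master gene, had a fold change of −0.62 (adjusted p = 0.345). Over the whole Notch list, 7 of 17 genes were lower and 2 higher, or 8 and 2 without CD1530 replicate 1.

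Inhibitors of the BMP and Wnt pathways were among the genes that were lower in CD1530 than in AGN. Of 21 BMP pathway genes, 8 were lower and 2 higher (median −0.27, or −0.25 with genes near 0 in a group at their bound), or 8 and 1 without CD1530 replicate 1. Grem1, a secreted BMP antagonist, was at 110.1, 123 and 115 CPM in CD1530 and 202, 184 and 178 CPM in AGN (−0.70 ± 0.069, adjusted p = 3.6e-09). Fst, which encodes the activin antagonist follistatin, was lower by 0.51 (adjusted p = 1.07e-08). The ligand Bmp2 was lower too (−0.47, adjusted p = 3.27e-10), as was Id4 (−0.72, adjusted p = 0.000513), of the Id family of BMP targets. Of 29 Wnt pathway genes, 12 were lower and 5 higher, or 11 and 3 without CD1530 replicate 1. Sfrp1, a secreted Wnt antagonist, was at 69.2, 81.5 and 88.8 CPM against 174, 172 and 179 CPM (−1.13 ± 0.059, adjusted p = 4.64e-17). Dkk2, another secreted modulator, was at 2.07, 3.23 and 3.54 CPM against 7.31, 7.38 and 7.65 CPM (−1.33 ± 0.13, adjusted p = 1.25e-10), and the Wnt receptor gene Ror1 was lower (−0.87, adjusted p = 1.19e-09). Both Sfrp1 and Dkk2 were separated in all libraries. The ligand gene Wnt8a was higher (1.19 ± 0.19, adjusted p = 6.71e-06).

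FGF genes were split by member. Of 23, 6 were higher and 3 lower, the 3 falls including the ligand genes Fgf8 and Fgf5. The receptor genes Fgfr4 (0.90 ± 0.29, adjusted p = 0.0257) and Fgfr3 (0.80 ± 0.22, adjusted p = 0.006) were higher. Those calls are less firm, since Fgfr4 was lost on leaving out AGN replicate 2 or 3 or CD1530 replicate 2 or 3, and Fgfr3 without CD1530 replicate 2. Of 14 TGFβ pathway genes, 6 were higher and 2 lower, or 7 and 1 without CD1530 replicate 1, but the fit of the 6 libraries alone called 1 higher and none lower. Ccn2, the connective tissue growth factor gene, differed by 0.26 (adjusted p = 0.000546) and the feedback gene Pmepa1 by 0.21 (adjusted p = 0.000911). The ligand gene Tgfb2 went the other way (−0.20 ± 0.046, adjusted p = 0.00143). Hedgehog genes gave no stable direction: of 11, none was higher and 2 were lower, Hhip (−0.50) and Ptch1 (−0.29), but without CD1530 replicate 1, 3 were higher and 1 lower, Hhip was no longer called and Ptch1 was at −0.15.

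Of the tendon genes, the programme that the CD1530 medium is meant to give, the defining members did not pass the test at 18 h. Scx was at 487, 418 and 433 CPM in CD1530 and 426, 431 and 432 CPM in AGN (0.055 ± 0.039, adjusted p = 0.38), with overlapping groups and no call, after a rise from 6 h of 2.00 (log2) in CD1530 and 1.84 in AGN. Mkx, the Mohawk homeobox gene of tendon, was at 12.1, 12.8 and 12.97 CPM against 12.1, 10.3 and 8.32 CPM (0.29 ± 0.11, adjusted p = 0.0556), and without CD1530 replicate 1 its adjusted p was 0.0393. Col1a1 had a fold change of −0.11 (adjusted p = 0.514). Tnmd, which encodes tenomodulin, was at or under 3 counts in every library, so no fold is given. Of 17 tendon genes, 4 were lower and 1 higher, and without CD1530 replicate 1, 3 were lower and 2 higher. The falls included the matrix genes Thbs4 (−1.62 ± 0.22, adjusted p = 4.33e-07) and Fmod (−0.83 ± 0.16, adjusted p = 0.000228), and the rise was that of decorin, Dcn (0.35, adjusted p = 7.94e-06).

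Cartilage genes were mostly lower in CD1530. Of 14, 9 were lower and 1 higher (median −0.29, or −0.26 with genes near 0 in a group at their bound), or 8 and 1 without CD1530 replicate 1. Col2a1, the main cartilage collagen, was at 345, 353 and 381 CPM in CD1530 and 507, 487 and 519.9 CPM in AGN (−0.49 ± 0.042, adjusted p = 4.34e-12). Col9a3, a collagen of the same fibrils, was at 13.96, 15 and 13.7 CPM against 27.9, 32.6 and 31.3 CPM (−1.10 ± 0.077, adjusted p = 9.09e-15). Both were separated in all 6 libraries. Col2a1 rose in both groups from 6 to 18 h, by 2.62 (log2) in AGN and 2.07 in CD1530. Sox9, the master factor of cartilage, was at 88.7, 86.1 and 89.9 CPM against 104, 98.8 and 107 CPM (−0.23 ± 0.048, adjusted p = 0.000533), and this call was not kept in the fit of the 6 libraries alone. Matn4 was lower (−0.93 ± 0.26, adjusted p = 0.00941), a call lost without AGN replicate 1 or CD1530 replicate 3. Acan, the aggrecan gene, had a fold change of −0.18 (adjusted p = 0.574). The exception was Hapln1, the link protein of cartilage and of heart and limb mesenchyme, at 38.9, 41.2 and 44.2 CPM against 21.1, 19.5 and 19.9 CPM (1.04 ± 0.082, adjusted p = 2.93e-13).

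The other mesoderm lists were divided. Of 17 somite and sclerotome genes, 4 were higher and 4 lower, and without CD1530 replicate 1, 1 was higher and 3 lower. Meox1, a homeobox gene of the young somite, was at 74.3, 73.3 and 70.8 CPM in CD1530 and 44.1, 40.3 and 46.1 CPM in AGN (0.74 ± 0.051, adjusted p = 5.92e-15). Nkx3-2, a sclerotome factor that precedes cartilage, was at 3.56, 2.96 and 2.52 CPM against 6.65, 6.80 and 7.37 CPM (−1.20 ± 0.14, adjusted p = 1.72e-08), and Pax9 was lower by 0.61 (adjusted p = 0.000115). Pax1, its partner in the sclerotome, had a fold change of −0.28 (adjusted p = 0.231). Of 12 Dlx, Alx, Msx and Prrx genes, 4 were lower and 1 higher, and Dlx1 (−1.39 ± 0.22, adjusted p = 4.42e-06) and Dlx2 (−1.35 ± 0.15, adjusted p = 5.53e-09) of branchial arch and limb were among the lower ones. Of 12 genes of limb, lateral and body wall mesoderm, 2 were higher, the T-box genes Tbx2 (0.97, adjusted p = 2.7e-08) and Tbx3 (0.63, adjusted p = 6.48e-10), and 2 lower. Skeletal muscle genes were lower in 3 of 7 cases, with Tnnt1 at −1.12 and Myh3 at −0.91, and a summed level of 54.9 to 55.8 CPM in CD1530 against 68.1 to 77.7 CPM in AGN. Of 13 neural genes 2 were lower and none higher, or 1 and none without CD1530 replicate 1, with summed levels of 475 to 483 CPM against 469 to 506 CPM.

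**Figure D3:**
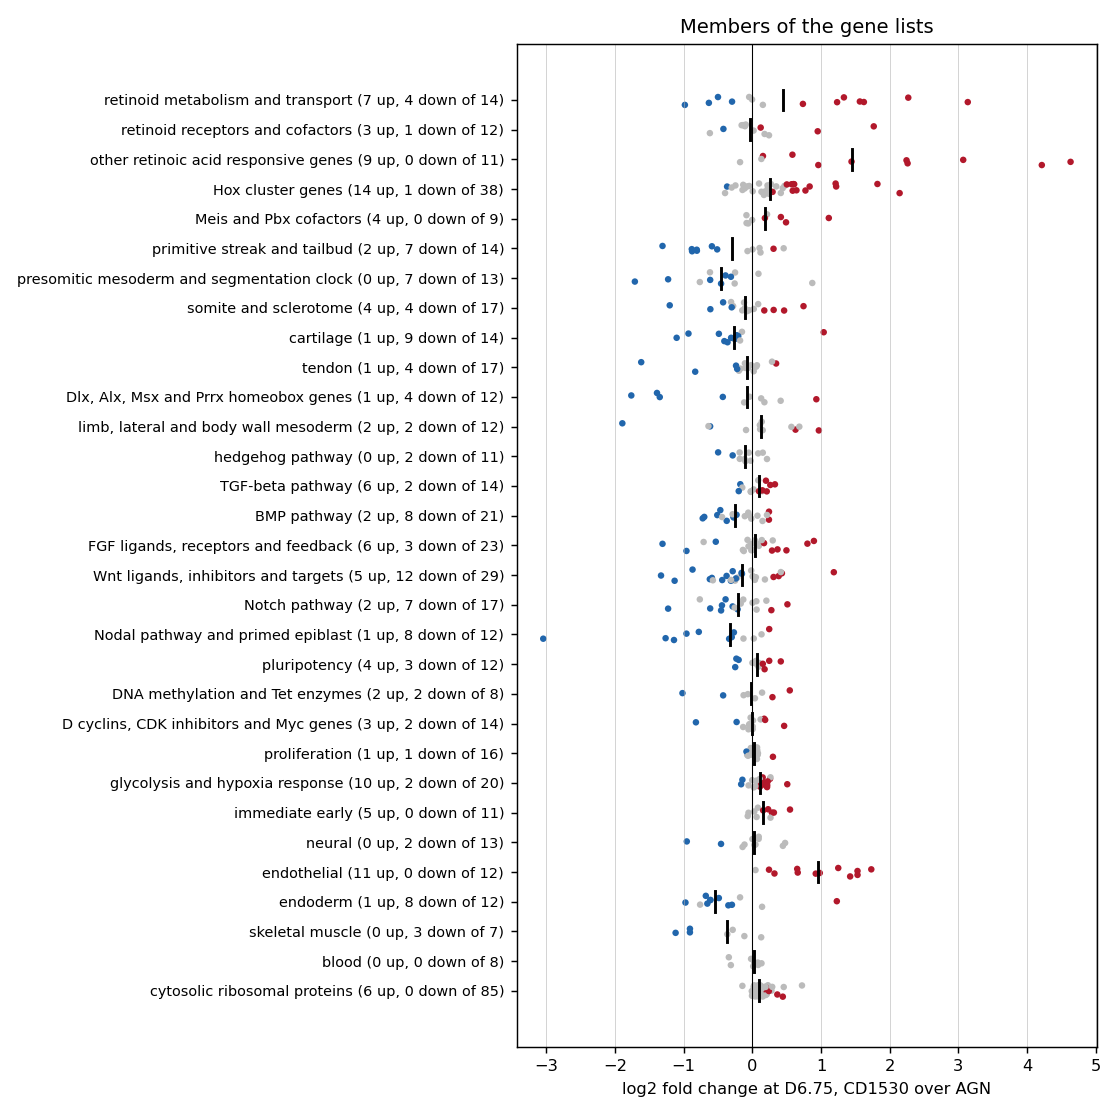
Log2 fold change (CD1530 over AGN at 18 h) of the members of each gene list, red for called higher, blue for called lower and grey for not called, with a black tick at the median; members at or under 3 counts in every library of a group are not drawn. The endothelial and retinoic acid-responsive lists lie to the right (medians 0.95 and 1.44), and the endoderm list to the left (median −0.55).

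Growth and metabolism differed by small amounts. Of 20 genes of glycolysis and the hypoxia response, 10 were higher and 2 lower (median 0.12), or 8 and 2 without CD1530 replicate 1, and 2 and none in the fit of the 6 libraries alone. Adm, the vasoactive peptide adrenomedullin, was at 30.5, 31.8 and 25.1 CPM in CD1530 and 24.4, 18.02 and 18.7 CPM in AGN (0.51 ± 0.091, adjusted p = 6.16e-05). Vegfa, the ligand of Kdr, was higher by 0.26 (adjusted p = 8.44e-05), a call not kept in the fit of the 6 libraries alone. Of 14 cyclin, CDK inhibitor and Myc genes, 3 were higher and 2 lower, with Myc at 0.46 (adjusted p = 2.51e-07) and Mycl at −0.82 (adjusted p = 1.77e-12). Of 16 proliferation genes 1 was higher and 1 lower, Cdk1 (0.30, adjusted p = 1.23e-06) and Mcm6 (−0.086, adjusted p = 0.0348). Without CD1530 replicate 1, 3 were higher and none lower, the call of Mcm6 being lost. After the length and GC correction 2 were higher and none lower. Of 11 immediate early genes 5 were higher, or 3 without CD1530 replicate 1, with Ier3 at 0.55 (adjusted p = 1.65e-08) and Junb at 0.31 (adjusted p = 2.13e-06). Of 85 ribosomal protein genes, 6 were higher and none lower, while 7.94% of all genes were higher and 10% lower. The rises were thus about as frequent as over all genes. Ribosomal protein genes are short and their reads can be shared with pseudogene copies. Without CD1530 replicate 1, 2 were higher and 1 lower.

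In the fit of the 6 libraries alone several other lists held fewer calls. It called 9 Hox genes higher, 3 presomitic genes lower and 4 cartilage genes lower with 1 higher. Of the BMP genes it called 5 lower and none higher, of the Wnt genes 5 lower and 2 higher, and of the Notch genes 4 lower and 1 higher. Of the FGF genes it called 3 lower and 2 higher, of the somite and sclerotome genes 4 lower and 1 higher, and of the pluripotency genes 1 lower and 2 higher. None of the 11 hedgehog genes passed in that fit, and 2 immediate early genes and 1 ribosomal protein gene did.

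The same contrast 6 h after the change of medium (D6.25) and at 36 h (D7.5) places these differences in time. At 6 h 329 genes (1.92%) were called, and at 36 h 4611 (26.9%). Of the 3076 genes called at 18 h, 249 were called at 6 h (242 with the same sign) and 1879 at 36 h (1782 with the same sign). The 249 genes were 75.7% of the 6 h calls and 8.10% of the 18 h calls. A test of the change in the difference from 6 to 18 h called 826 genes (4.82%), of which 776 had a larger difference at 18 h and 50 a smaller one. Without CD1530 replicate 1 at 18 h that test called 1301 genes. From 18 to 36 h, 1541 genes (9%) were called, 1125 with a larger difference at 36 h and 416 with a smaller one.

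Retinoid-clearing genes already differed at 6 h, and differed more at 18 h and again at 36 h. The endothelial group, in contrast, opened after 6 h. Cyp26b1 had a log2 fold change of 1.46 at 6 h, 3.14 at 18 h and 3.75 at 36 h, and both steps passed the test (adjusted p = 1.12e-12 and 0.000915). Dhrs3 went from 1.04 to 2.27 to 4.18 (adjusted p = 6.44e-09 and 6.47e-15). Rarb was at 2.04 by 6 h, with a step to 18 h that did not pass (−0.27, adjusted p = 0.825), and reached 4.66 at 36 h. Of the endothelial genes, 2 of 12 were called at 6 h, 9 had a difference that changed by 18 h, and 10 were called at 36 h. Emcn was at 0.12 at 6 h (adjusted p = 0.93), 1.73 at 18 h and 0.91 at 36 h, the last step being a loss (adjusted p = 0.000426). Its level at 36 h was 23.1 CPM in CD1530 and 12.4 CPM in AGN, against 7.05 CPM in AGN at 18 h. Tek, an angiopoietin receptor gene, went from −0.11 to 0.65 to −0.18, the last not called (adjusted p = 0.147). Hapln1, at 0.086, 1.04 and 0.14, was likewise high in CD1530 at 18 h and not called at either neighbour time (adjusted p = 0.828 and 0.382).

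Several genes of Nodal and TGFβ signalling and of endoderm crossed over after 18 h. Lefty1 was lower in CD1530 at 18 h (−0.78) and higher at 36 h (1.11), a change of 1.89 (adjusted p = 1.39e-24). Its mean level was 283 CPM in AGN at 18 h and 61.4 CPM at 36 h, against 165 and 133 CPM in CD1530. Gata6, a GATA factor of endoderm and mesoderm, went from −0.61 to 0.44 (change 1.05, adjusted p = 3.94e-10), and Tgfb2 from −0.20 to 1.05 (change 1.25, adjusted p = 3.2e-17). In all, 97 genes were called at both times in opposite directions with a called change between them, and from 6 to 18 h there were 7 such genes. Cer1 did not cross: it was at −0.63, −3.05 and −4.21. Otx2 was at −0.27, −1.26 and −2.62.

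**Figure D4:**
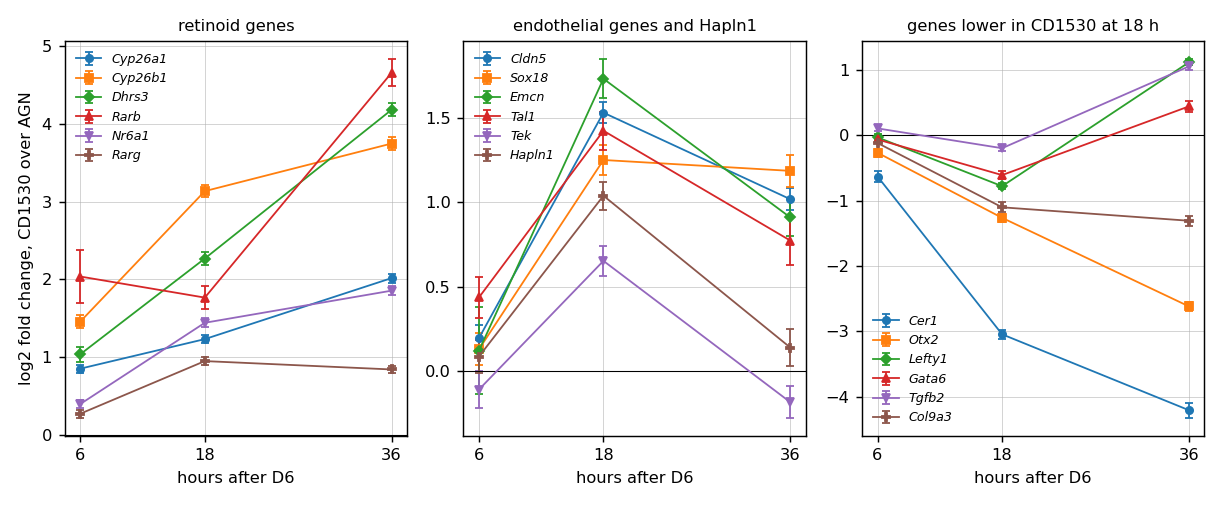
Log2 fold change (CD1530 over AGN, points with SE bars) at 6, 18 and 36 h for 6 retinoid genes, 5 endothelial genes with Hapln1, and 6 patterning genes. The retinoid genes Cyp26b1 and Dhrs3 widen at each time, Emcn and Hapln1 peak at 18 h, and Lefty1, Gata6 and Tgfb2 cross 0 between 18 and 36 h.

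Since CD1530 replicate 1 deviated along gene length, the calls were also split by exon length. With all libraries, the share of genes called lower rose from 3.42% in the shortest bin (median exon length 947 bases) to 14.2% in the longest (9337 bases), and the share called higher was between 5.87% and 10%. Without CD1530 replicate 1 the tilt was the other way for higher calls, from 3.71% in the shortest bin to 13.3% in the longest. After the length and GC correction both shares were between 10.3% and 12% in the 4 longer bins. Of the 343 called genes that differed by 1 or more (log2), 290 still did so without it.

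**Figure D5:**
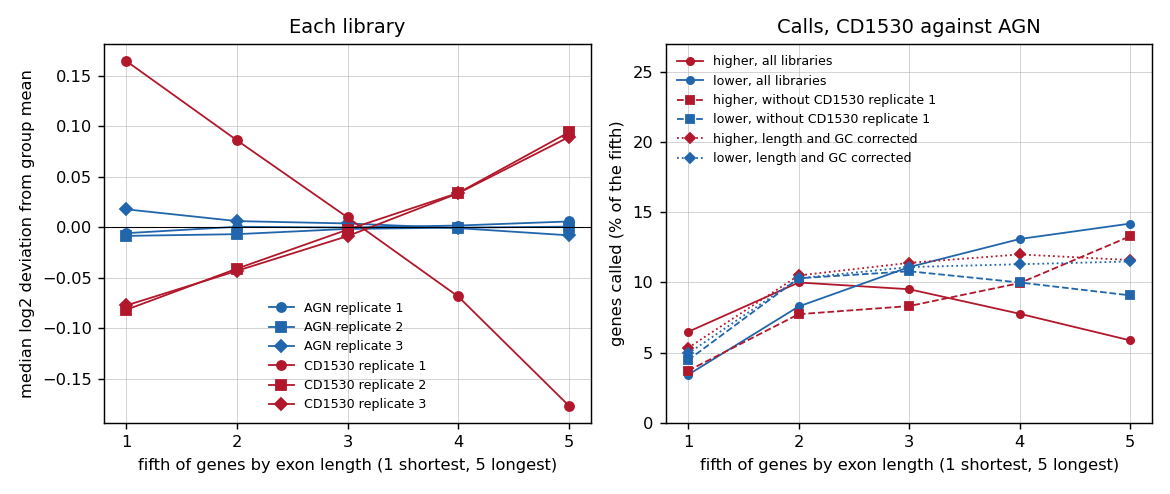
Left, median log2 deviation of each of the 6 libraries from its group mean in 5 bins of exon length. CD1530 replicate 1 runs from 0.16 to −0.18, and the AGN libraries stay near 0. The group mean includes replicate 1, so the opposite run of the other CD1530 replicates is not a separate observation. The other panel gives the percent of genes called higher and lower in each bin in the 3 fits.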

How the data were processed

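Bulk RNA-seq of 33 libraries was used. The authors aligned reads with STAR to GRCm38, assigned them to genes with featureCounts and deposited raw counts for 17120 genes; the annotation release, strand setting and treatment of reads with several matches are not given in the sources used here. From these counts a robust quasi-likelihood model (edgeR 4.0.16 in R 4.3.3, limma 3.58.1) was fitted to all 33 libraries with 11 group means, which share the estimate of spread, after TMM scaling. Genes were called at a Benjamini-Hochberg adjusted p below 0.05 over all genes. The changes of the difference from 6 to 18 h and from 18 to 36 h were contrasts of the same model. Totals of the 6 libraries compared were 17509535 to 22775275 counts, and 3 counts in a library was taken as the floor. Exon lengths and GC content came from GENCODE and promoter windows from RefSeq, both on GRCm38.

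Alternatives were library size or DESeq2 size factors, no further filter or 1 CPM, a fit that was not robust, DESeq2 1.42.0, a fit of the CD1530 and AGN groups of 18 h alone, a block for the replicate number, a correction for gene length and GC content, and each replicate left out. Same-numbered CD1530 and AGN libraries did not deviate together (correlations −0.018, 0.013 and 0.015), so the numbers were not used as pairs. Simulated counts for the 18 h comparison were run on 17118 genes. All 100 genes changed by 1 on the log2 scale and 82 of 100 changed by 0.5 were called. There were 6 calls among 16918 unchanged genes. These rates belong to the simulated counts only. In the measured libraries CD1530 replicate 1 deviated along gene length, and 756 calls were lost without it. Whether the rates hold under such a deviation, or for genes with few counts, was not tested.

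The genes named are the 15 largest rises and 15 largest falls among calls averaging 50 counts or more, with no overlap between groups and still called without CD1530 replicate 1, leaving out predicted genes, then 20 fixed genes, then up to 4 called members of each list averaging 10 counts or more. Afp, Aldh1a2, Aldh1a3, Blvrb, Cdh5, Dhrs9, Gata6, Hoxb13, Hoxd11, Kdr, Lefty1, Lefty2, Nodal, Nr2f2, Nr6a1, Pecam1, Rdh10, Rec8, Sp5, Tek, Tgm2, Tie1, Wnt3a and the opposing genes named after the report lie outside that rule or were chosen after their values were seen. The members and the 32 lists were chosen with earlier results of these data known. Some members of the lists are not reported here by name.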

Additional observations from a re-analysis of the deposited data

Results flagged for a closer look

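The difference between CD1530 and AGN changed with time for many genes. From 6 to 18 h it changed in 826 genes and from 18 to 36 h in 1541 genes, each by a test of the change itself in edgeR's quasi-likelihood model.

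Among genes described in the report, 5 were called in opposite directions at neighbouring times with a called change between them: Ccn2, Tdgf1 and Tgfb2, given here, and Lefty1 and Gata6, given in the report. Ccn2, the connective tissue growth factor gene, was lower in CD1530 at 6 h and higher at 18 h, a change of 0.48 (log2). Tdgf1, the Nodal co-receptor gene, was higher at 18 h and lower at 36 h, a change of −0.39. Tgfb2 was lower at 18 h and higher at 36 h, a change of 1.25. Among members of the lists not described in the report, Col9a1, Hk2 and Sfrp5 changed direction from 6 to 18 h, and Dppa4, Eno1, Heyl, Slc2a3, Tgfbi and Utf1 from 18 to 36 h.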

How the results depend on the processing

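The count of 3076 genes at 18 h was 3066 to 3077 with other scalings, other filters or a fit that was not robust, 2977 with DESeq2, and 2452 to 3428 with 1 of the 6 libraries left out. It was 1236 in a fit of the compared groups only and 343 where a log2 difference of 1 or more was also asked for. The changes from 6 to 18 h (826) and from 18 to 36 h (1541) came to 439 and 649 with the compared groups only, to 1150 and 1854 with the length and GC correction, and to 662 to 1301 and 1080 to 2201 with a library left out, 1301 being without CD1530 replicate 1 at 18 h. With the replicate number as a block, the 3 counts were 3009, 829 and 1477 over all libraries and 1046, 417 and 569 with the compared groups only; the labels pair no libraries. Positive changes from 18 to 36 h were 62.2% of calls, 51.9% with library size only and 43.5% after the length and GC correction.

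Of 134 named calls, 100 held in all 18 settings, and none of the 134 reversed in any. Calls lost without CD1530 replicate 1 were Bnip3, Col5a1, Fosl1, Hhip, Map2, Mcm6, Rpl12, Rpl38 and Uncx. The uncalled genes Acan, Scx and Tnmd changed sign. With 1 library left out Acan ran from −0.43 to 0.0097, Scx from −0.012 to 0.098 and Tnmd, near 0 counts, from −1.88 to 2.55, the sign changing without CD1530 replicate 1 (Acan, Scx) or 2 (Tnmd). Without CD1530 replicate 1, Acan was 0.010 and Scx −0.0083 with the compared groups only, and Acan was 0.0075 with the correction, a setting chosen after seeing the data. The cause was not tested. The floor of 3 counts in a library was a set level and not a measured limit of detection. Genes at or under it in AGN, such as Hoxb13 and Wnt3a, could still be called, with only a bound on their fold.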
